A study of Mus musculus with 18 samples.

Results

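The response to hydrogen peroxide was measured by RNA sequencing in MOVAS cells, a mouse aortic smooth muscle cell line, that had been given isoliensinine in both arms of the comparison. It was read from the 3 libraries of the group H_I against the 3 libraries of the group B_I, which are 6 of the 18 libraries and were chosen by their titles. The labels say of B_I and H_I only that they were given isoliensinine. Because the titles run in parallel, B_I is taken as Blank (untreated cells) plus isoliensinine and H_I as H2O2 (cells given hydrogen peroxide) plus isoliensinine. The series' design text calls the peroxide treatment an inducer of senescence and states that the replicates were biological. No dose or time of either agent is given in the sources used here. All groups share 1 cell line, so the libraries are replicates of a culture and not of animals, and MOVAS cells are known as a line immortalised with a viral large T antigen, a protein that binds p53 and the retinoblastoma protein. The 6 libraries held 12859609 to 17955971 counts.

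Hydrogen peroxide is a small oxidant that crosses membranes and oxidises thiols, iron centres and DNA bases. Cells remove it with catalase, glutathione peroxidases and peroxiredoxins, and they answer it through NRF2, which switches on antioxidant genes, through p53, which switches on growth-arrest genes such as Cdkn1a, and through stress-activated kinases, which switch on short-lived transcription factors of the AP-1 and ATF families. In vascular smooth muscle, peroxide is a standard trigger of premature senescence, a lasting growth arrest with an altered secretion. Isoliensinine is a bisbenzylisoquinoline alkaloid of lotus seed embryos.

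Before any comparison, 2 libraries stood apart. Of 8 smooth muscle markers, Acta2 (smooth muscle actin) stood at 1122, 1178 and 3875 CPM (counts divided by library size, scaled by trimmed means) in the libraries B_I_1, B_I_2 and B_I_3 and at 2439, 2300 and 1863 CPM in H_I_1, H_I_2 and H_I_3, while Tagln (transgelin), another defining marker, stayed between 0.202 and 0.757 CPM in all 6. Myh11 (smooth muscle myosin) stood at 6.81, 4.78 and 3.34 CPM and at 31.7, 12.2 and 10.6 CPM. Cnn1 (calponin) stood at 3.61, 1.87 and 3.79 CPM and at 12.8, 5.12 and 5.26 CPM. In both every H_I library lay above every B_I library, as in 11.1% of all tested genes, and H_I_1 was highest. In the remaining markers Smtn, Myl9, Cald1 and Lmod1 the groups overlapped. The 39 genes of cytosolic ribosomal proteins summed to 98810 CPM in B_I_3 against 67916 and 74733 in the other B_I libraries and 60329 to 62005 in H_I. Transcripts of other organs were present: 32 colon epithelium markers summed to 416, 165.7 and 105.8 CPM in B_I and to 1132, 367.2 and 449.1 CPM in H_I, and 24 liver markers to 194.4, 126.1 and 130.0 CPM in B_I and to 610, 234.6 and 218.7 CPM in H_I. H_I_1 was thus the highest of the 6 in both organ lists and B_I_3 the highest in ribosomal protein genes and Acta2. Summed macrophage markers overlapped between the groups (435 to 657.1 CPM in B_I, 544.5 to 584.4 in H_I), as did endothelial markers (28.9 to 42.2 and 31.9 to 49.3 CPM). Summed NK and T lymphocyte markers overlapped as well (2.58 to 4.42 and 3.02 to 10.7 CPM, with Ncr1 and Prf1 at 0 in all 6), whereas fibroblast markers did not (447.6 to 573.7 CPM in B_I, 330 to 391.1 in H_I). The fits were therefore repeated without H_I_1, without B_I_3 and without both. Of the 48 called genes that the naming rule picked, 14 kept their call without both, and the other 34 had edgeR adjusted p from 0.0528 to 0.549 there. The part of the organ transcripts in the results was not tested. In these cultures, fewer cells of a kind and less RNA per cell cannot be told apart.

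**Figure D1:**
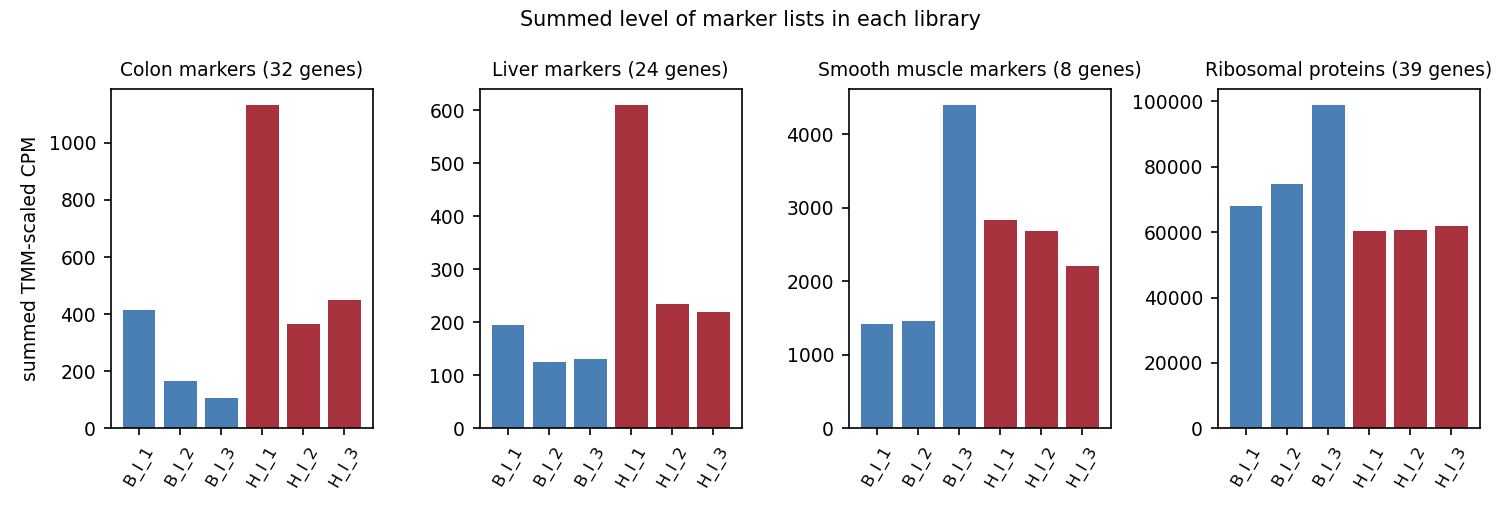
Summed CPM of 4 gene lists in the 3 B_I libraries (blue bars) and the 3 H_I libraries (red bars). Colon and liver markers are highest in H_I_1, and smooth muscle markers and ribosomal protein genes are highest in B_I_3.

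With isoliensinine on both sides, peroxide changed 195 of 13375 tested genes (1.46%) by edgeR's quasi-likelihood test at a Benjamini-Hochberg adjusted p under 0.05. Of these, 62 rose (0.464%) and 133 fell (0.994%). The share that rose, 31.8%, was 42.1% with upper-quartile scaling and 74.2% with limma at either pseudocount, with medians over all genes of 0.11, 0.13 and 0.16 in place of 0.05. The rises were larger: the median log2 fold change was 1.29 among risen and -0.56 among fallen genes, and 39 of the 44 changes over 2-fold were rises. Many rises were also at low level, 28 of 62 starting under 5 CPM in B_I, against 1 of the 133 falls. The groups overlapped in CPM for 1 of the 195 genes; over all tested genes 1487 (11.1%) had every H_I library above every B_I library and 1622 (12.1%) the reverse. The count of changed genes depended on single libraries. It was 37 without H_I_1 (17 higher, 20 lower) and 73 without B_I_3 (34 and 39), of which 35 and 64 were among the 195. Without both it was 29 (17 and 12), of which 23 were among the 195. Without B_I_1, B_I_2, H_I_2 or H_I_3 it was 424, 79, 90 and 63. In the fits without H_I_1, without B_I_3 and without both, each of the 195 genes kept its sign. Where groups do not overlap, leaving out a library cannot turn the sign, so this was no check for all but 1 gene. Of the 195 genes, 32 were called both without H_I_1 and without B_I_3 (15 higher, 17 lower).

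The promoters of Atf3, Maff, Btg2 and Tmem86a, all risen, hold the core letters of the cyclic AMP response element, which ATF and CREB family proteins are known to bind, and that of Cdkn1a holds letters of a p53 half-site pair. They are shown because these genes are among those the next paragraphs turn on. Each run is a RefSeq window of 300 bases in build GRCm38.p6, from 250 bases before to 50 after the annotated start, 5′ to 3′ along the gene. Capitals mark TGACGT on either strand (8 capitals where a pair of matches overlaps) or, in Cdkn1a, the p53 half-site pair, searched as CATG, 6 bases of any kind and CATG.
Atf3 (chr1:191183284-191183583, - strand): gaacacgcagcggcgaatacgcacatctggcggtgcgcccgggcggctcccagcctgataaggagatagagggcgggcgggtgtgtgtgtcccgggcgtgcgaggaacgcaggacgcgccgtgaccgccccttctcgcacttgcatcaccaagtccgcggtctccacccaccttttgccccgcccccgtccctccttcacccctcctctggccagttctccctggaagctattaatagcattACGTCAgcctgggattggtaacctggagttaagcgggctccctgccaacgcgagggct
Maff (chr15:79347270-79347569, + strand): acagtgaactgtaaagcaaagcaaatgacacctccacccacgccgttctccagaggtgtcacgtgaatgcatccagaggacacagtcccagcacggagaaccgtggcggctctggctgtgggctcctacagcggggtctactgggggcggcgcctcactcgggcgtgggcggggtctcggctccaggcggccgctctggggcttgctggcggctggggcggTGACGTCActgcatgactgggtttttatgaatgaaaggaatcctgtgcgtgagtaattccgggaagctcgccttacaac
Btg2 (chr1:134079106-134079405, - strand): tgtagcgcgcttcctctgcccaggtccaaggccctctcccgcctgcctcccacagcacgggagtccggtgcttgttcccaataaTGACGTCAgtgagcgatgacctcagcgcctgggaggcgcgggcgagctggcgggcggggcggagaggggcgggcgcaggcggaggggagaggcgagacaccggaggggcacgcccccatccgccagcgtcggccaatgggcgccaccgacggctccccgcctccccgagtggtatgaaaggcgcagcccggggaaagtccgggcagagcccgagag
Tmem86a (chr7:47050390-47050689, + strand): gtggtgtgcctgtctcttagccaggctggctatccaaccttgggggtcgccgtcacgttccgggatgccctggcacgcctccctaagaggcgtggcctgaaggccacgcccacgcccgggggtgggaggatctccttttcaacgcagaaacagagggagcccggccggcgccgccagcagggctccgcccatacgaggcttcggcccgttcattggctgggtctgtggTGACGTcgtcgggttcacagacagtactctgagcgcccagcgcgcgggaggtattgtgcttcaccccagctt
Cdkn1a (chr17:29090729-29091028, + strand): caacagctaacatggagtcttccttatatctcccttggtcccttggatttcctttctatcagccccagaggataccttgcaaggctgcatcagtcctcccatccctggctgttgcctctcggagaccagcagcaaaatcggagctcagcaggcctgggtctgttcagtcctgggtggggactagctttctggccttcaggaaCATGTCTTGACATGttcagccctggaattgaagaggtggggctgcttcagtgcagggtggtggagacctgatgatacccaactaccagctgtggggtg
Maff has 3 windows in the RefSeq table and Cdkn1a 2; the window with the most matches is printed. TGACGT was found in 7.51% of all 32851 windows and, by gene, in 12.7% of the 10595 tested genes that have a window. It was found in 13 of the 46 risen genes with a window (28.3%) and in 10 of the 106 fallen ones (9.43%). The full palindrome TGACGTCA was found in 4 of 46 (8.7%) and 3 of 106 (2.83%), against 3.42% of tested genes. Other letters searched on both strands were the p53 half-site pair (1 of 46 risen, 0 of 106 fallen, 0.321% of tested genes), TGATGNAA (1 of 46, 4 of 106, 2.81%) and CCAAT (18 of 46, 50 of 106, 43.0%). The motifs were picked after the changed genes were known, and a match describes letters only.

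Genes of growth arrest among the p53 targets rose in part. Cdkn1a, which encodes the cyclin-dependent kinase inhibitor p21, stood at 128, 128 and 94.8 CPM in B_I and at 229.7, 232 and 210.1 CPM in H_I. Every H_I library lay far above every B_I library, and the naming rule had asked for no overlap in the largest changes, of which Cdkn1a is 1. The rise was 1.91-fold, between group means of 117 ± 19.2 and 224 ± 12 CPM (SD, n = 3), with a log2 fold change of 0.94 (95% interval 0.68 to 1.19, edgeR adjusted p = 0.00066), with 0.79 (edgeR adjusted p = 0.0222) without H_I_1 and B_I_3. Of 30 p53 targets, 3 were higher and 0 lower (Cdkn1a, Btg2 and Plk2, which are 3 of the list's 9 growth-arrest genes), against 0.464% and 0.994% of all tested genes. Among the 30, 23 had a positive log2 value, as did 7415 of all 13375 tested genes. The list's median was 0.34, against 0.05 over all tested genes, and ranged from 0.32 to 0.50 over all settings run. Btg2, an antiproliferative co-regulator, went from 24.3, 19.4 and 18 CPM to 32.8, 33.7 and 34.4 CPM (log2 0.71, edgeR adjusted p = 0.0129). Plk2, a polo-like kinase, went from 24.6, 23.9 and 18.4 CPM to 39.2, 34.2 and 32 CPM (log2 0.66, edgeR adjusted p = 0.0498). Their groups did not overlap. The calls of both were lost when single libraries were left out: Btg2 without B_I_2, B_I_3, H_I_1 or H_I_3 (edgeR adjusted p up to 0.087) and Plk2 in every such fit except that without B_I_1 (up to 0.236). The 5 regulators of p53 had a median of 0.62, which was 0.32 without B_I_3 and 0.3 without both libraries, and none was called. In 2 every H_I library lay above every B_I library and in 2 below (11.1% and 12.1% of all tested genes).

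Cyclin and checkpoint genes moved little apart from 1 cyclin. Ccnd1, which encodes the G1 cyclin D1, stood at 42.7, 34.9 and 21.9 CPM in B_I and at 73.5, 77.3 and 68.8 CPM in H_I, 2.20-fold higher (log2 1.14, edgeR adjusted p = 0.0117). Its B_I libraries were spread widely and its H_I libraries were not, and the call was lost without B_I_2, B_I_3 or H_I_1 (edgeR adjusted p up to 0.0677). Ccnd1 and Cdkn1a were the 2 called of 25 cell-cycle inhibitors and senescence regulators. Bub1b, a spindle checkpoint kinase, was the 1 called of 37 mitosis genes (71.6 ± 2.27 to 94.1 ± 5.6 CPM, SD, n = 3; log2 0.40, edgeR adjusted p = 0.0415), and its call was lost without any of the 6 libraries (0.0524 to 0.17). Cdt1, which licenses replication origins, fell from 312, 384 and 396 CPM to 257, 268 and 236 CPM (log2 -0.52, edgeR adjusted p = 0.0269). It was the 1 called of 38 replication and E2F target genes, of which 9 had a positive log2 value (median -0.15, -0.19 to -0.00 over all settings), and its call was kept only without B_I_1 (otherwise up to 0.143). Over all 13375 tested genes 1.46% were called and 7415 had a positive log2 value. Common markers of senescence and proliferation were not called. Cdkn2a, the gene of p16 and p19ARF, had log2 0.07 (-0.26 to 0.40, edgeR adjusted p = 0.851), Lmnb1 (lamin B1) 0.05 (0.899), Mki67, a proliferation marker, -0.14 (0.794) and Glb1, which encodes lysosomal beta-galactosidase, -0.19 (0.308).

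Atf3 and Maff, a pair of stress transcription factor genes, rose, while most genes of their kind were not called. Atf3, a factor of the ATF family induced by many stresses, stood at 10.2, 9.36 and 9.95 CPM in B_I and at 19.6, 24.9 and 23.2 CPM in H_I. It rose 2.29-fold (log2 1.20, 95% interval 0.77 to 1.63, edgeR adjusted p = 0.00599). Maff, a small MAF protein that pairs with NRF2 or with itself, stood at 12.6, 12.1 and 15.0 CPM and at 27.6, 33.7 and 30.6 CPM, a 2.31-fold rise (log2 1.21, 0.77 to 1.65, edgeR adjusted p = 0.00599). In both genes the lowest H_I library lay well above the highest B_I library. Both calls were kept in each fit that left out 1 library and without H_I_1 and B_I_3 together (log2 1.30 and 1.38). Both genes are among the largest changes. The naming rule took those only with no overlap and if called without H_I_1 and without B_I_3. Of 30 immediate early genes, 2 were higher and 1 lower (0.464% and 0.994% of all tested genes). Among the 30, 23 were positive (7415 of all 13375), with a median of 0.34 (0.26 to 0.52 over all settings) against 0.05 over all tested genes. The 2 were Fos, the AP-1 subunit (4.88 ± 0.613 to 9.63 ± 1.72 CPM, SD, n = 3; log2 0.98, edgeR adjusted p = 0.0461), and Nr4a1, an orphan nuclear receptor (5.30 ± 1.11 to 11.9 ± 1.6 CPM; log2 1.16, edgeR adjusted p = 0.0269). The fallen one was Zfp36, which encodes tristetraprolin, a protein that speeds decay of inflammatory mRNAs (72.8 ± 3.94 to 46 ± 3.73 CPM; log2 -0.66, edgeR adjusted p = 0.0408). The calls of Fos and Zfp36 were kept only without B_I_1, and that of Nr4a1 only without B_I_3 (otherwise up to 0.194, 0.168 and 0.108).

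The integrated stress response, in which eIF2alpha kinases raise translation of ATF4 and its target genes, showed no common direction. Of its 40 genes, 1 was higher (Atf3) and 2 were lower, against 0.464% and 0.994% of all tested genes, with a median of -0.01 (-0.05 to 0.16 over all settings). Atf5, a sister factor of ATF4, stood at 1491, 1677 and 1982 CPM in B_I and at 1004, 1154 and 1051 CPM in H_I (log2 -0.68, edgeR adjusted p = 0.0135). Pycr1, an enzyme of proline synthesis, stood at 154, 167 and 158 CPM and at 90.5, 90.3 and 88.9 CPM, 1.77-fold lower (log2 -0.83, edgeR adjusted p = 0.0063). Both fell without overlap; Atf5 lost its call without B_I_3, H_I_1 or H_I_3 (up to 0.091) and Pycr1 without H_I_1 (0.0509) and without both H_I_1 and B_I_3 (0.0894). Atf4 itself stood at 316, 328 and 326 CPM and at 297, 338 and 373 CPM (log2 0.06, edgeR adjusted p = 0.858). Ddit3 (CHOP) had log2 0.56 (0.11 to 1.01, edgeR adjusted p = 0.187) and Trib3, a feedback inhibitor, -0.16 (0.475). None of 27 genes of folding in the endoplasmic reticulum and of 21 heat shock genes was called.

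**Figure D2:**
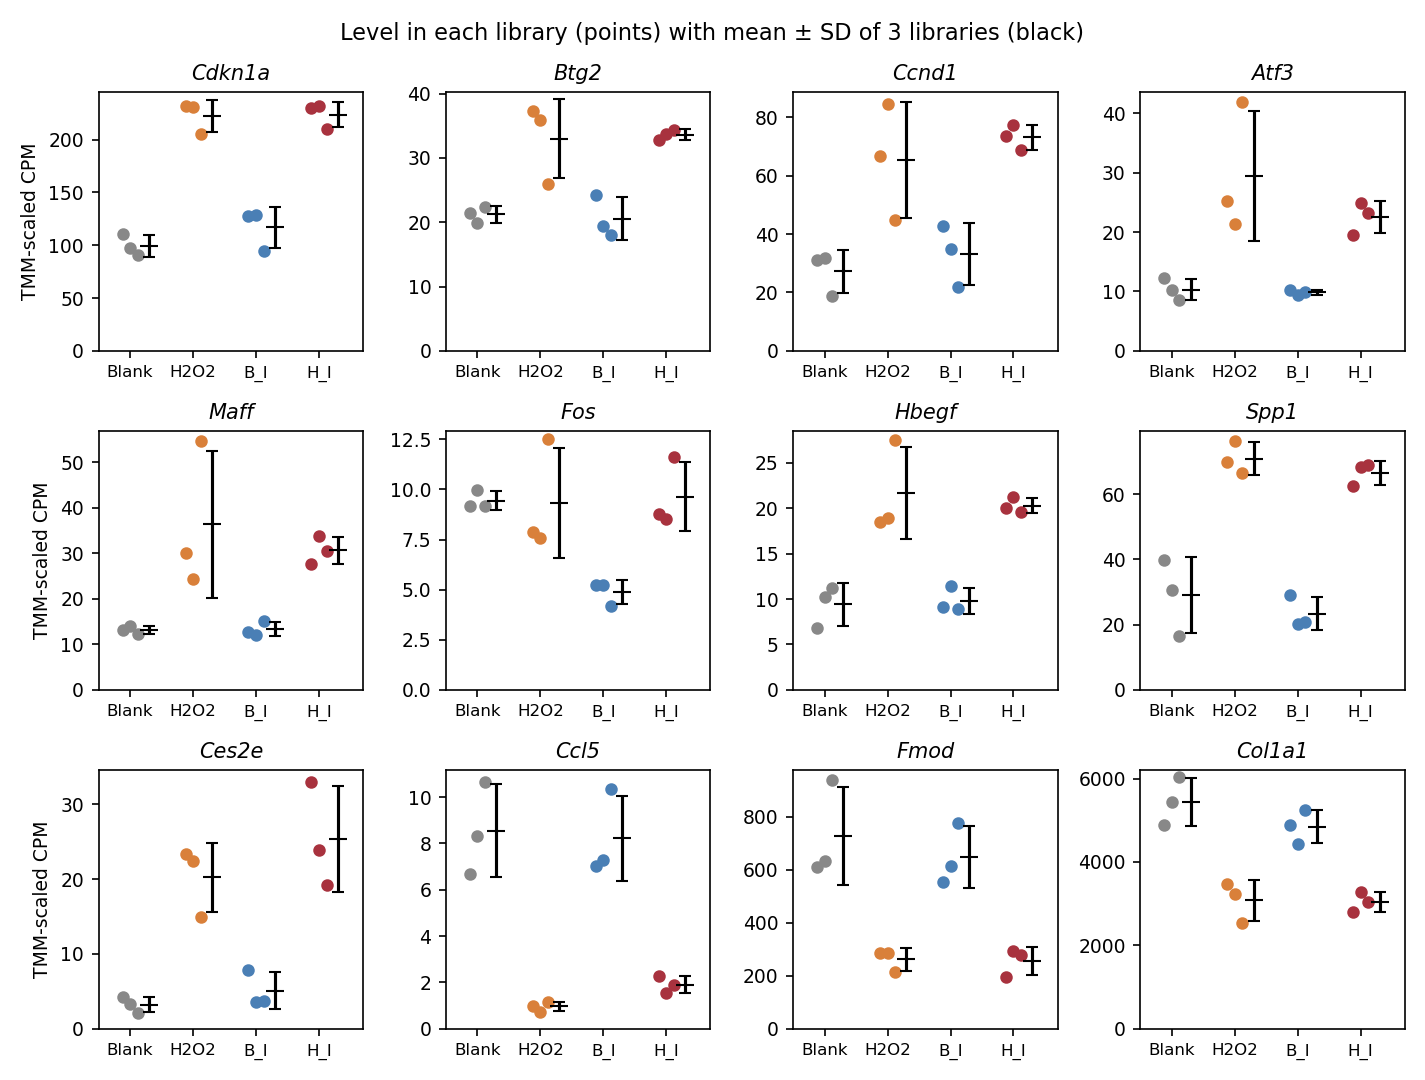
Level of 12 genes in each library (points, TMM-scaled CPM), with mean and SD of 3 libraries (black), in Blank, H2O2, B_I and H_I; every axis starts at 0. In all 12 genes the 3 H_I libraries lie clear of the 3 B_I libraries. The same holds for all but 1 of the 195 called genes.

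Antioxidant genes did not rise together. Of 22 tested genes of peroxide removal, 0 were higher and 1 was lower (0.464% and 0.994% of all tested genes), with a median of -0.02 (-0.08 to 0.15 over all settings). That gene was Prdx4, the peroxiredoxin of the endoplasmic reticulum, which stood at 484, 545 and 676 CPM in B_I and at 360.0, 357 and 381 CPM in H_I (log2 -0.64, edgeR adjusted p = 0.021). The group means of Prdx4 were 569 ± 98.4 and 366 ± 13 CPM (SD, n = 3), and its call was lost without B_I_3, H_I_1, H_I_2 or H_I_3 (up to 0.104). Cat (catalase) stood at 20.1, 20.6 and 20.5 CPM and at 39.6, 25.7 and 20.4 CPM, the highest being H_I_1 (log2 0.48, edgeR adjusted p = 0.254; log2 0.19 without H_I_1). Of 33 tested genes of the NRF2 pathway, 2 were higher and 3 lower (0.464% and 0.994% of all tested genes), with a median of 0.01 (-0.06 to 0.15 over all settings). The higher ones were the regulators Maff and Mafk, the latter at 22.1 ± 3.81 and 33.6 ± 1.46 CPM (SD, n = 3; log2 0.61, edgeR adjusted p = 0.0486; 0.117 without H_I_1 and 0.227 without B_I_3). The lower ones were effector enzymes: the glutathione transferases Gstm1 and Gstm2 and Tkt, the transketolase that feeds NADPH supply. Gstm1 stood at 957, 1171 and 1330 CPM in B_I and at 775, 703 and 699.6 CPM in H_I (log2 -0.67, 95% interval -0.90 to -0.43, edgeR adjusted p = 0.00599), and this call was kept in each fit that left out 1 library, with -0.60 (0.0528) without H_I_1 and B_I_3. Gstm2 (log2 -0.41, 0.0415; 0.125 without H_I_1 and 0.181 without B_I_3) and Tkt (-0.40, 0.0346) were lower by less, the call of Tkt being kept only without B_I_1 (otherwise up to 0.175). Gstm genes are close copies of each other, so their split of reads is uncertain. Classical NRF2 targets were not called: Hmox1 (heme oxygenase 1) had log2 0.32 (0.11 to 0.53, edgeR adjusted p = 0.116, called in 3 of 17 alternatives), Gclm 0.34 (0.163), Txnrd1 0.48 (0.269), Slc7a11 0.31 (0.541), Srxn1 -0.02 (0.942) and Nqo1 -0.09 (0.856). Mafk, Gstm2 and the matrix genes beyond Sparc, Fmod, Spp1 and Col1a1 lie outside the naming rule and were named after their values were seen.

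Several genes of the matrix fell and 1 rose. Of 59 tested genes of the extracellular matrix, 1 was higher and 9 were lower, where 0.464% and 0.994% of all tested genes were. Among the 59, 18 had a positive log2 value (7415 of all 13375), the median being -0.15 (-0.22 to -0.03 over all settings). Without H_I_1 the list had 3 falls, without B_I_3 it had 6, and without both 1, with the 1 rise in each. Fmod, which encodes the collagen-binding proteoglycan fibromodulin (chromosome 1, 133964992 to 133976015 as in the deposited table), stood at 554, 614 and 777 CPM in B_I and at 196, 293 and 278 CPM in H_I. It fell 2.54-fold (log2 -1.34, 95% interval -1.71 to -0.98, edgeR adjusted p = 0.00066), and without H_I_1 and B_I_3 the value was -1.03 (0.0217). Fmod was 1 of 3 fallen among 8 tested proteoglycan genes, of which 3 had positive log2 values (median -0.24; 1 call without H_I_1, without B_I_3 or without both). The other fallen ones were Prelp, at 34.8 ± 11.1 CPM in B_I and 16.6 ± 3.71 CPM in H_I (SD, n = 3; log2 -1.06, edgeR adjusted p = 0.0269) and Bgn (biglycan), at 3560 ± 746 and 2192 ± 168 CPM (-0.70, 0.0129). In Prelp and Bgn the highest library was B_I_3, and without it the values were -0.78 (0.168) and -0.51 (0.0762). The fibrillar collagen gene Col1a1 stood at 4885, 4432 and 5235 CPM and at 2791, 3290 and 3042 CPM (log2 -0.67, edgeR adjusted p = 0.00599; 0.0527 without H_I_1). Its partner Col1a2 stood at 6709 ± 989 and 4001 ± 493 CPM (-0.75, 0.00599; 0.0527 without H_I_1), and Col6a2, of collagen VI, at 485 ± 133 and 275 ± 25.7 CPM (-0.82, 0.0178; 0.0994 without H_I_1 and 0.0949 without B_I_3). Sparc, a collagen-binding matricellular protein gene, stood at 4891, 5142 and 5733 CPM and at 3087, 3660 and 3566 CPM (-0.61, 0.00314), and was called in each fit that left out 1 library but not without H_I_1 and B_I_3 (-0.47, 0.114). The elastic-fibre genes Emilin1 (-0.53, 0.00646) and Ltbp4 (-0.48, 0.0234; 0.108 without H_I_1) fell as well. Eln (elastin) stood at 37.6, 39.6 and 68.0 CPM and at 16.8, 22.8 and 25.6 CPM and was not called (-1.15, edgeR adjusted p = 0.0627), though it was without B_I_1 (0.0413). Col3a1 was not called (-0.53, 0.262). The 13 crosslinking genes had 0 calls. Serpinf1, an anti-angiogenic serpin on the fibroblast marker list, fell from 122 ± 38.5 to 57.9 ± 6.82 CPM (-1.07, 0.00599; 0.05 without H_I_1 and 0.163 without both). It was the 1 called of 10 tested fibroblast markers, whose median of -0.38 turned to 0.16 without B_I_3.

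Secreted factors split. Spp1, which encodes osteopontin, a matrix and bone-related cytokine (chromosome 5, 104582984 to 104588916 as in the deposited table), stood at 29.2, 20.1 and 20.8 CPM in B_I and at 62.4, 68.3 and 69.1 CPM in H_I. This 2.85-fold rise (log2 1.51, 95% interval 1.08 to 1.94, edgeR adjusted p = 0.00078) was the 1 rise among the matrix genes and was called under all 17 alternatives. Hbegf, an EGF-family growth factor, stood at 9.08, 11.5 and 8.92 CPM and at 20.0, 21.3 and 19.6 CPM (log2 1.05, edgeR adjusted p = 0.00599; 0.0907 without H_I_1 and B_I_3). Together with Spp1 it made the 2 risen of 37 tested secretory factors of senescence, of which 1, the membrane protease Mmp14, fell (-0.41, 0.0488; lost in each fit without 1 library, 0.0655 to 0.215). The list's median was 0.33 (0.10 to 0.38 over all settings), against 0.05 over all tested genes, of which 0.464% rose and 0.994% fell. Ccl5, a chemokine that attracts T and NK cells (chromosome 11, 83416604 to 83421344), stood at 7.04, 7.29 and 10.3 CPM and at 2.29, 1.54 and 1.89 CPM. It fell 4.32-fold (log2 -2.11, 95% interval -2.71 to -1.51, edgeR adjusted p = 0.00078), was the 1 called of 12 chemokines and was called under all 17 alternatives. Spp1 and Ccl5 are among the largest changes, which the naming rule took only if called without H_I_1 and without B_I_3. Ccl2, a monocyte chemokine, stood at 0.815, 1.16 and 1.16 CPM and at 5.61, 3.76 and 3.1 CPM without overlap and was not called (1.99, 0.85 to 3.12, edgeR adjusted p = 0.0681). Il6 was too low to be tested, at 0 CPM in 4 of the 6 libraries and 0.698 and 0.221 in B_I_1 and H_I_1.

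Genes of innate and NK-cell recognition gave few calls. Of 44 interferon-stimulated genes, 2 were higher and 0 lower, both at low level: Zbp1, a sensor of Z-form nucleic acid (1.92, 2.58 and 1.54 CPM to 4.35, 5.0 and 6.61 CPM; log2 1.40, edgeR adjusted p = 0.0271), and Oas2, an antiviral enzyme (0.756, 0.387 and 0.834 CPM to 3.39, 2.9 and 2.09 CPM; 2.07, 0.0346). Their groups did not overlap, and both calls were lost without H_I_1 or B_I_3 (Zbp1 0.0527 and 0.126, Oas2 0.117 and 0.0704), as well as without H_I_2 or H_I_3 and, for Oas2, B_I_2. The list had 39 positive values, where 7415 of all 13375 tested genes were positive, 0.464% rose and 0.994% fell. Its median of 0.48 (0.05 over all tested genes) went to 0.22 without H_I_1 and B_I_3. Those are the libraries in which the organ transcripts and the ribosomal protein genes were highest. Of 21 genes of MHC class I presentation, 1 fell, the proteasome activator Psme1 (240 ± 28.2 to 175 ± 4.16 CPM, SD, n = 3; -0.45, edgeR adjusted p = 0.0227; up to 0.126 without B_I_3, H_I_1, H_I_2 or H_I_3). B2m (0.07, 0.796) and H2-K1 (0.19, 0.315; a gene with close copies) were not called. Among 8 tested ligands that activate NK cells, 11 inhibitory ligands and 17 death receptors and partners there was no call. Ulbp1, an NKG2D ligand, stood at 20.1, 17.6 and 14.1 CPM and at 27.4, 28.1 and 29.4 CPM (0.71, 0.15 to 1.27, edgeR adjusted p = 0.184), and Pvr, a DNAM-1 ligand, at 56.4 ± 5.02 and 69.2 ± 7.15 CPM (SD, n = 3; 0.29, 0.166). In both genes every H_I library lay above every B_I library, as it did for 11.1% of all tested genes.

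Ribosomal protein genes had mostly negative log2 values, few of them called. Of 39 genes of cytosolic ribosomal proteins, 3 fell and 0 rose (0.994% and 0.464% of all tested genes). Among the 39, 37 had negative log2 values, where 7415 of all 13375 tested genes had positive ones. In 22 every H_I library lay below every B_I library (12.1% of all tested genes did so). The list's median of -0.34 kept its sign under every setting run (-0.47 to -0.14) and was -0.20 without H_I_1 and B_I_3. The 3 were Rpl10 (2561, 2800 and 3236 CPM to 1847, 2046 and 1754 CPM; -0.61, edgeR adjusted p = 0.00888), Rpl32 (-0.47, 0.0415) and Rps4x (-0.75, 0.0426). Rps4x stood at 4730 CPM in B_I_3 against 2785 and 2828 in the other B_I libraries, and without B_I_3 it went to -0.45 (0.231). Rpl10 lost its call without H_I_1 or H_I_3 (up to 0.0736) and Rpl32 kept it only without B_I_1 (otherwise up to 0.192). Rps26, named for the size of its change, stood at 1999, 2223 and 2546 CPM and at 1596, 1379 and 1284 CPM (-0.67, edgeR adjusted p = 0.00599). It was called in each fit that left out 1 library, which the naming rule had asked for without H_I_1 and without B_I_3. Nop53, a nucleolar factor of large-subunit assembly, stood at 364, 391 and 425 CPM and at 246, 236 and 236 CPM (-0.71, 95% interval -0.92 to -0.50, edgeR adjusted p = 0.00092) and was called under all 17 alternatives. The naming rule had picked Nop53 on the same terms as Rps26. Ribosomal protein genes have many near-identical copies, so reads may be split between them. Of 18 tested genes of base excision and oxidative DNA repair none was called and 3 had positive values, against 7415 of all 13375 (median -0.22, -0.26 to -0.05 over all settings).

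**Figure D3:**
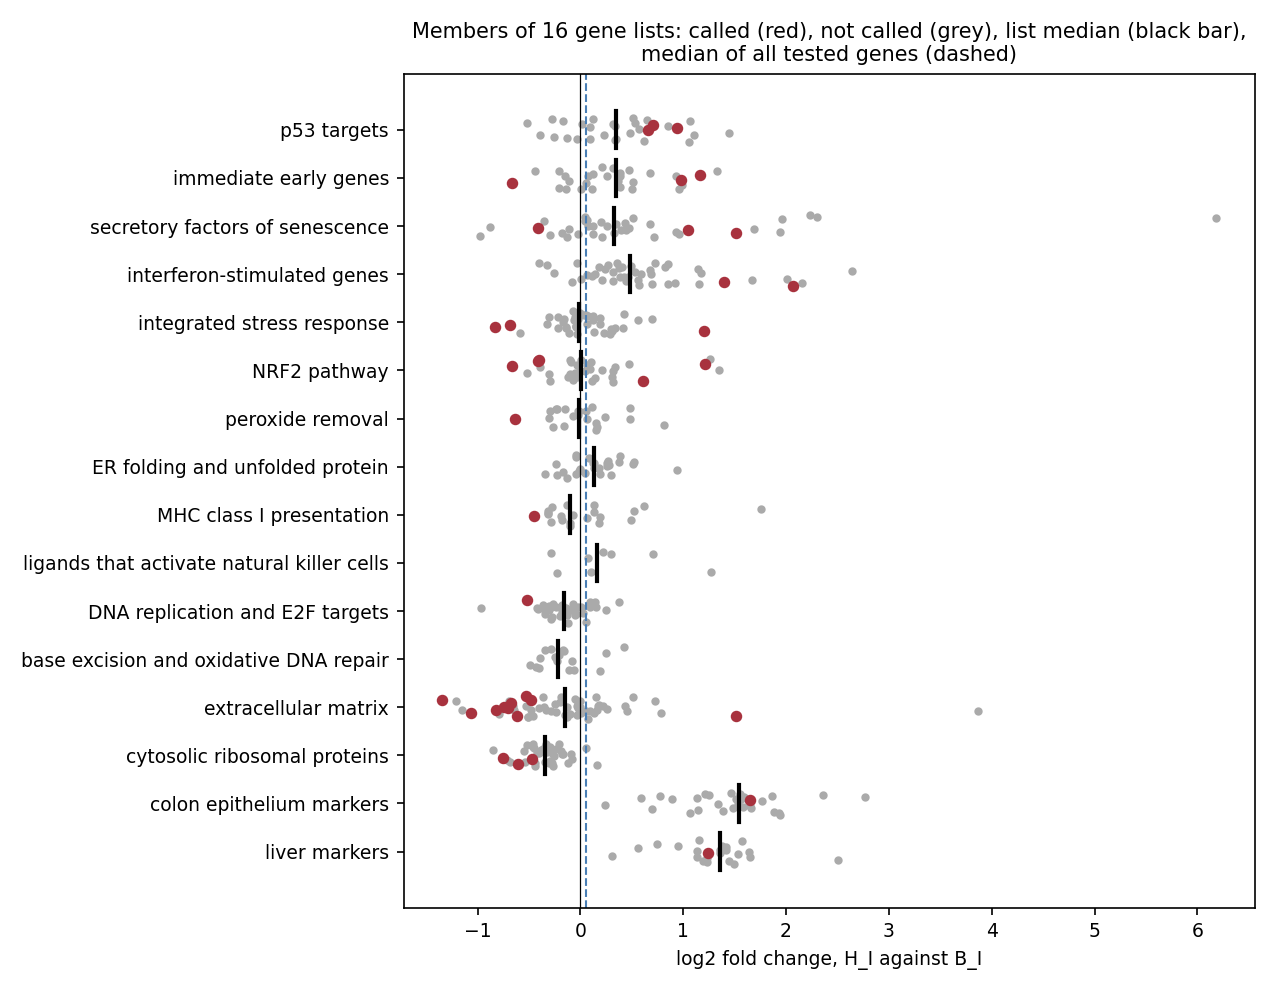
Log2 fold change of H_I against B_I for the tested members of 16 gene lists (points; red, adjusted p under 0.05; grey, not called), with the list median (black bar) and the median of all tested genes, 0.05 (dashed line). Ribosomal protein genes lie mostly below 0 and the colon and liver markers wholly above it.

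Other named genes, of varied functions, changed as clearly. Ces2e, a carboxylesterase gene (chromosome 8, 105652892 to 105661304 as in the deposited table), stood at 7.91, 3.61 and 3.72 CPM in B_I and at 33.0, 23.9 and 19.2 CPM in H_I. This was a 4.95-fold rise (log2 2.31, 95% interval 1.71 to 2.90, edgeR adjusted p = 0.000644), with 1.90 (0.0206) without H_I_1 and B_I_3. Both H_I_1 and B_I_1 were the highest of their group, as they were for the organ markers, and mouse Ces2 genes are close copies, so the split of reads is uncertain. Tmem86a, an enzyme gene of lysoplasmalogen breakdown, had the smallest adjusted p of the named genes: it stood at 87.9, 108 and 96.5 CPM and at 179, 216 and 178 CPM (1.96-fold; 0.97, 0.75 to 1.20, 0.000144; 1.01 without H_I_1 and B_I_3). Slpi, a secreted inhibitor of leukocyte proteases, stood at 9.31, 8.71 and 5.78 CPM and at 23.1, 22.9 and 18.6 CPM (1.44, edgeR adjusted p = 0.0012). Myl12a, a regulatory myosin light chain gene, rose less (143 ± 15.8 to 212 ± 27.5 CPM, SD, n = 3; 0.57, 0.0396) and lost its call without B_I_1, B_I_2, H_I_2 or H_I_3 (up to 0.145). Dbp, a clock-controlled transcription factor gene, stood at 127, 136 and 121 CPM and at 75.3, 77.5 and 72.1 CPM (-0.77, 95% interval -1.02 to -0.52, edgeR adjusted p = 0.00247). The RNA-binding protein gene Rbms2 (-0.69, 0.00133), Mpst, an enzyme of hydrogen sulfide production (-0.71, 0.00531), and the zinc-finger gene Zfp362 (-0.80, 0.00599) fell as well. These 3 were called in each fit that left out 1 library. The naming rule had asked for this without H_I_1 and without B_I_3. Without H_I_1 and B_I_3 together Rbms2 kept its call (edgeR adjusted p = 0.036) and Mpst (-0.63, 0.0894) and Zfp362 (-0.60, 0.146) did not. Of the 48 called named genes, 12 were called under every one of the 17 alternatives. Ces2e, Spp1, Slpi, Maff, Atf3, Tmem86a and Cdkn1a were higher, and Ccl5, Fmod, Dbp, Nop53 and Rbms2 lower. All are among the largest changes, which the naming rule took only if called without H_I_1 and without B_I_3.

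Lipid genes gave scattered calls. Lpcat3, which puts polyunsaturated chains into phospholipids, stood at 282, 294 and 314 CPM in B_I and at 197, 209.5 and 206 CPM in H_I (log2 -0.54, edgeR adjusted p = 0.00599; 0.129 without H_I_1 and B_I_3). It was the 1 called of 16 tested genes of iron handling and ferroptosis. In the list of cholesterol efflux and LXR targets 3 of 15 fell, Lpcat3, Rxra (-0.43, 0.039) and Srebf1 (-0.48, 0.0139), and 1 rose, the small GTPase gene Arl4c (0.89, 0.046; 0.124 without H_I_1 and 0.195 without B_I_3; named after its value was seen). Of 31 sterol genes 2 fell, Srebf1, the lipid-synthesis regulator, and Tm7sf2, a sterol reductase (186 ± 33.6 to 118 ± 5.57 CPM, SD, n = 3; -0.65, 0.01). Over all tested genes 0.994% fell and 0.464% rose. Srebf1 lost its call without B_I_2, H_I_1 or H_I_3 (up to 0.11), Tm7sf2 without B_I_3 or H_I_1 (up to 0.0722), and Rxra kept it only without B_I_1 (otherwise up to 0.203). No gene was called of 29 tested contractile genes, 25 of the TGF-beta pathway, 45 of lysosome and autophagy, 33 of glycolysis and hypoxia, 25 of the BCL2 family and caspases, 21 of NF-kB, 12 encoded in mitochondria and 7 of metallothioneins and zinc.

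Some of the steepest rises were of genes that B_I hardly expressed. Ces2f, Zfp607b and Gal3st2c had 0 counts in all 3 B_I libraries. In H_I_1, H_I_2 and H_I_3 they had 15, 8 and 10 counts (Ces2f), 7, 9 and 21 (Zfp607b) and 39, 11 and 21 (Gal3st2c). Against the level of 3 counts over the 3 B_I libraries together (0.062 CPM) these were at least 11.9-fold, 13.3-fold and 25.6-fold higher, counting error only. Zfp607b kept its call without H_I_1, without B_I_3 and without both. Ces2f lost it without H_I_1 (edgeR adjusted p = 0.056) and without both (0.159), and Gal3st2c in all 3 fits (0.121, 0.107 and 0.298). Sprr1a, a cornified-envelope protein gene, stood at 0.233, 0.129 and 0.385 CPM and at 2.07, 3.21 and 1.42 CPM (8.78-fold; log2 3.13, 95% interval 2.22 to 4.04, edgeR adjusted p = 0.00089; 3.62 and 0.018 without H_I_1 and B_I_3). Pierce1, a gene of cilia and left-right patterning, stood at 0.698, 0.839 and 0.449 CPM and at 3.32, 3.02 and 3.44 CPM (2.29, 0.00812). Ctsf (cathepsin F) stood at 0.116, 0 and 0.257 CPM and at 2.51, 1.6 and 1.89 CPM (3.93, 0.00812). These 6 lie outside the naming rule and were picked after their values were seen. At equal depth B_I libraries would show 14369, 13762 and 13592 genes with a count and H_I libraries 15101, 14729 and 14989, so every H_I library held more such genes than every B_I library. Tigit, a lymphocyte receptor gene, had 2 counts over the 3 B_I libraries, and stood at 2.51, 1.23 and 0.472 CPM in H_I (edgeR adjusted p = 0.00888; 0.0631 without H_I_1, and its call was lost without B_I_2 too), the 1 called of 3 tested NK and T lymphocyte markers. Cd68, a macrophage and lysosome gene, stood at 3.67, 3.36 and 1.8 CPM and at 9.0, 10.8 and 10.2 CPM (1.76, 0.0406; up to 0.179 with a library left out), the 1 called of 9 macrophage markers. Krt19, a keratin of simple epithelia, was the 1 called of 32 colon markers, all of which had positive values (13.7, 7.1 and 5.78 CPM to 43.2, 20.4 and 20.1 CPM; 1.65, 0.021; 0.96 and 0.419 without H_I_1 and B_I_3). Trf (transferrin) was the 1 called of 23 liver markers (1.24, 0.0431; 0.85 and 0.417 without both). The medians of the colon and liver lists, 1.54 and 1.36, went to 0.54 and 0.56 without both libraries. Over all 13375 tested genes 1.46% were called, 7415 had positive values and the median was 0.05.

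The peroxide response without isoliensinine was read from H2O2 against Blank, 6 other libraries. There 191 genes were called (1.43%), 85 higher (0.636%) and 106 lower (0.793%). The 2 responses shared 69 called genes, 35.4% of the 195 and 36.1% of the 191. Each of the 69 had the same direction in both, 25 higher and 44 lower. Of the 195 genes, 186 (95.4%) had the same sign without isoliensinine, against 63.1% of all tested genes, and of the 191 genes 187 (97.9%) had the same sign with it. Blank_4, like B_I_3, was high in Acta2 (4514 CPM against 806 and 901) and in ribosomal protein genes (103048 against 75666 and 69457 CPM). With both controls left out, 71 of 73 genes called in H_I against B_I (97.3%) had the same sign, against 56.2% of all genes, as did 183 of the 195 (93.8%). In those fits 34 genes were called in both, of 73 and 259.

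For the leading genes the log2 values are set side by side. Cdkn1a had log2 0.94 with isoliensinine and 1.16 without it, Tmem86a 0.97 and 1.06, Atf3 1.20 and 1.51, Maff 1.21 and 1.46, Spp1 1.51 and 1.28, and Ces2e 2.31 and 2.62. Among fallen genes Fmod had -1.34 and -1.48, Col1a1 -0.67 and -0.82, Gstm1 -0.67 and -0.66, and Ccl5 -2.11 and -3.15. The difference between both responses, (H_I minus B_I) minus (H2O2 minus Blank), was called for 0 of 13375 genes by edgeR (0%), with 813 (6.08%) at an unadjusted p under 0.05, for 2 genes by DESeq2 and for 1 by limma at either pseudocount. Its median unadjusted 95% half-width was 0.68 on the log2 scale. In a gene of that half-width a smaller estimated difference left 0 inside its interval, and a call after adjustment needed a larger difference still. For Cdkn1a the interval was -0.59 to 0.13, for Fmod -0.37 to 0.64, for Spp1 -0.37 to 0.82 and for Ccl5 0.17 to 1.90 (edgeR adjusted p = 0.888, 0.958, 0.934 and 0.765).

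Some genes were called on 1 side alone, which is no test of the difference. Hmox1 rose without isoliensinine (132.5 to 220.1 CPM in the mean, log2 0.73, edgeR adjusted p = 0.000469) and had 0.32 with it, and the difference of -0.41 had an unadjusted 95% interval of -0.71 to -0.11 and an adjusted p of 0.765 by edgeR. Atf4 rose without it (253 to 416 CPM, 0.72, 0.00523) and had 0.06 with it (difference -0.66, -1.04 to -0.28, edgeR adjusted p = 0.765). The B_I libraries of Atf4 (316, 328 and 326 CPM) lay above those of Blank (249.6, 239 and 271 CPM), which was not tested. Glb1 fell without isoliensinine (-0.45, 0.018), Eln too (-1.56, 0.013) and Col3a1 too (-1.11, 0.0253). In the other direction, Fos stood at 9.15, 9.98 and 9.17 CPM in Blank and 7.9, 7.56 and 12.5 CPM in H2O2 (-0.02, edgeR adjusted p = 0.986). Its B_I libraries stood at 5.24, 5.23 and 4.17 CPM, below those of Blank, which was not tested. The difference for Fos was 1.0 (0.30 to 1.70, edgeR adjusted p = 0.765). Pycr1, Dbp, Zfp36 and Zfp362 fell with isoliensinine and had -0.28, -0.31, -0.06 and -0.31 without it (edgeR adjusted p of the difference 0.765 for each).

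**Figure D4:**
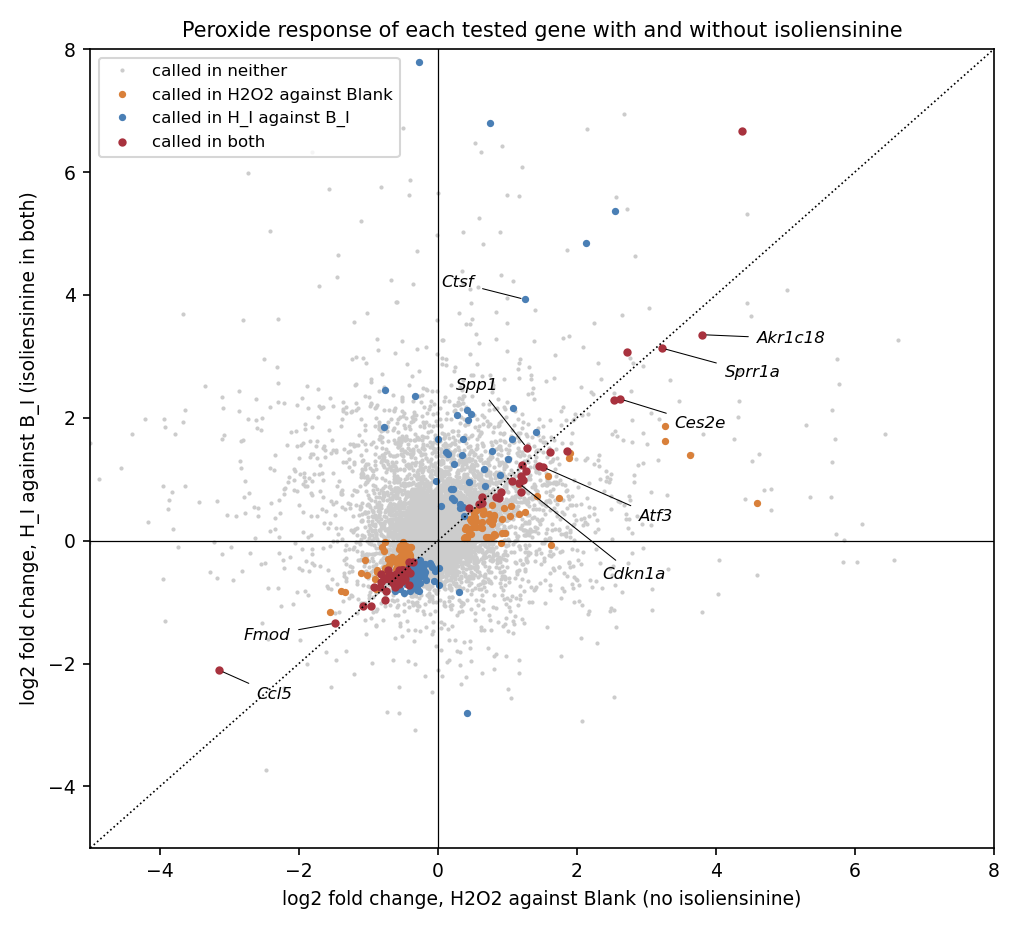
Log2 fold change of each tested gene in H2O2 against Blank (horizontal) and in H_I against B_I (vertical), coloured by where the gene was called at an adjusted p under 0.05; the dotted line marks equal change, and 25 genes lie outside the axes (-5 to 8). The 69 genes called in both (red) lie in the upper right and lower left of the plot.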

How the data were processed

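RNA from 18 libraries of 6 groups, 3 a group, was sequenced. Per the submitters' processing notes, the tools included fastp 0.22.0, HISAT2 2.1.0 and HTSeq 0.9.1; the genome build and the strand setting are not stated there or in the labels. The authors deposited read counts per gene and FPKM in 1 table of 21959 genes, and every deposited FPKM equalled the value computed from its count (relative tolerance 1e-06). Identifiers without a symbol (51, 0.0187% of counts) were kept under their gene identifier. Totals ran from 12859609 to 23284077 counts. With edgeR 4.0.16 in R 4.3.3, all 18 libraries were fitted together by group (TMM scaling, filterByExpr, quasi-likelihood test, Benjamini-Hochberg adjustment, threshold 0.05), so that the groups shared 1 estimate of spread. The median 95% half-width was 0.481 on the log2 scale and the common biological coefficient of variation 0.219. Replicates differed beyond counting error (lowest chi-square per degree of freedom 5.512), so none was a copy.

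Alternatives were DESeq2 1.42.0, limma 3.58.1 on log2(FPKM + 1) and log2(FPKM + 0.1), other scalings and filters, a replicate block and left-out libraries. The gene members and lists were chosen with earlier results of these data known. Named were the 8 largest changes each way that were called with all libraries, without H_I_1 and without B_I_3, with no overlap, at least 5 FPKM in the higher group and not on the colon or liver list, up to 3 called genes of each of the 38 lists, and 31 fixed genes. Tested on simulated data for H_I against B_I among 13375 genes, with 200 genes changed (average log2 CPM over 2), the fit called 41.8% of 67 genes at 1.5-fold, 80.6% of 67 at 2-fold and 95.5% of 66 at 4-fold. The simulated counts varied independently from gene to gene, with no library standing apart as H_I_1 and B_I_3 did. The shares therefore do not cover such libraries or genes of lower level.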

Additional observations from a re-analysis of the deposited data

How the results depend on the processing

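The count of changed genes in H_I against B_I (195) became 530 with DESeq2, 333 and 364 with limma at pseudocounts of 0.1 and 1, 35 with only the libraries compared, 616 with a replicate block over all 18 libraries, 148 with a block over only the libraries compared, 29 without H_I_1 and B_I_3, 54 at an adjusted p under 0.01 and 44 past 2-fold. With 1 library left out it ranged from 37 to 424; upper-quartile scaling, DESeq2 size factors, no filter and a filter of 5 CPM gave 178, 135, 217 and 167. For H2O2 against Blank (191) the counts were 428 with DESeq2, 515 and 504 with limma at 0.1 and 1, 5 with only the libraries compared, 1376 with a replicate block over only those, and 94 to 259 with 1 library left out. For the difference between the responses (0) they were 2, 1 and 1 with DESeq2 and limma and 0 to 0 with 1 library left out. The cause was not tested, except that fewer libraries were used where some were left out. Of the changed genes 31.8% were higher, against 42.1% with upper-quartile scaling, 39.4% with DESeq2, 74.2% with limma at either pseudocount, 60.8% with the block over the libraries compared and 58.6% without H_I_1 and B_I_3; upper-quartile scaling moved the median of all genes from 0.05 to 0.11 and limma to 0.13 and 0.16. Correlations of same-numbered deviations were 0.194, 0.08 and -0.005, too few values to settle whether replicate numbers pair the libraries. Where groups do not overlap, as in all but 1 of the 195 called genes, leaving out a library cannot turn a sign. Of the 48 called named genes none changed sign in 814 alternative values, of which 598 stayed past the threshold and 216 did not. Signs turned in 9 uncalled ones: Mki67 0.02, Nqo1 0.08, Srxn1 0.14 and Trib3 0.01 with limma at either pseudocount, Srxn1 0.01 with the 5 CPM filter and 0.03 with upper-quartile scaling, and B2m -0.05 without H_I_1 and B_I_3. With 1 library left out, Cdkn2a ran from -0.06 to 0.29, Lmnb1 from -0.03 to 0.16, Nqo1 from -0.25 to 0.07, Srxn1 from -0.09 to 0.05, Atf4 from -0.03 to 0.15 and Acta2 from -0.2 to 0.94. At this depth and spread, the median gene's unadjusted 95% half-width was 0.481 on the log2 scale. In a gene of that half-width a smaller estimated change left 0 inside its interval, and a call after adjustment needed a larger change still. Genes of less spread were called at smaller changes, such as Bub1b at 0.4.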

Other observations

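The 2 genes whose peroxide responses differed with and without isoliensinine by DESeq2 (adjusted p = 0.0135 for both) were chosen after their values were seen, and by edgeR neither was called (adjusted p = 0.648 for both). Phlda1, a pleckstrin-homology gene linked to cell death, stood at 11.6, 12.3 and 12.2 CPM in Blank and 7.97, 8.55 and 7.53 CPM in H2O2. With isoliensinine it stood at 8.15, 8.52 and 8.02 CPM in B_I and 12.1, 12.5 and 11.3 CPM in H_I. Its libraries thus lay lower with peroxide alone and higher with peroxide in isoliensinine-treated cells, without overlap. As the gene was picked for this difference, that separation is no support for it. The log2 difference of Phlda1 was 1.10 by DESeq2 and 1.12 by edgeR (unadjusted 95% interval by edgeR 0.64 to 1.61). Sash1, a scaffold gene of adhesion and signalling, stood at 8.28, 6.1 and 3.53 CPM in Blank and 2.75, 2.85 and 3.03 CPM in H2O2, and at 3.32, 4.13 and 3.34 CPM in B_I and 8.71, 7.28 and 6.07 CPM in H_I. Its log2 difference was 2.07 by DESeq2 and 2.09 by edgeR (unadjusted 95% interval by edgeR 1.20 to 2.97).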
